A study of Mus musculus with 4 samples.

Results

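The gene families of axon guidance and synaptic adhesion were followed in mouse intestinal epithelium. Members were chosen by symbol: every gene in the tables whose name starts with Epha, Ephb, Efna, Efnb, Sema, Plxn, Robo, Slit, Ntn, Unc5, Nrxn or Nlgn, plus Nrp1, Nrp2, Dcc and Neo1, leaving out pseudogenes, antisense genes, and Slitrk and Semal genes. This gave 79 protein-coding genes of the 31053 gene identifiers in the tables. They comprised 14 Eph receptors, 8 ephrins, 20 semaphorins, 11 plexins and neuropilins, 7 Slit and Robo genes, 13 genes of the netrin group and 6 neurexins and neuroligins. The netrin group includes Unc50 and Unc5cl, which match the prefix alone and are no netrin receptors.

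The first experiment compared Ret-EGFP+ with non-EGFP cells, sorted from intestinal crypts of adult male RetEGFP/+ mice on a C57BL/6J background. RetEGFP/+ is a knock-in that expresses EGFP from the Ret locus on 1 allele, and the cells of both groups carry it. The gate for EGFP was set with a littermate control. There were 5 libraries of each group with 1000 cells per library, from 3 mice with 1 or 2 libraries of a group per mouse, and the mouse behind a library is not known here. The second experiment compared organoids given GDNF together with its co-receptor GFRA1 (500 ng/mL each) with control organoids, all on day 4 in medium with EGF, NOGGIN and R-Spondin 1. There were 6 libraries of each group from 3 experiments, each with crypts of the proximal intestine of 1 wild-type C57BL/6J mouse (experiments 1 and 2 female, experiment 3 male). Organoids are epithelial cultures, grown to leave out the neurons, vessels and mesenchyme of the tissue.

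Axon guidance molecules are ligands and receptors that steer cells and their processes by attraction or repulsion. Semaphorins signal through plexins, and most of the secreted class 3 semaphorins also need a neuropilin as co-receptor. Slits bind Robo receptors, netrins bind Dcc, neogenin and Unc5 receptors, and ephrins bind Eph receptors on neighbouring cells and can signal in both directions. In the intestinal crypt, B-type Eph receptors and ephrins are known for keeping cells in position along the crypt axis. Neurexins and neuroligins join the presynaptic and postsynaptic sides of synapses. Enteroendocrine cells, the hormone-secreting cells of the gut epithelium, are electrically excitable and can form synapse-like contacts with neurons.

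RNA was counted from the 3′ end of transcripts, with 1185426 to 3222485 counts per Ret-EGFP+ library, 1113006 to 4717549 per non-EGFP library, 1042028 to 2010359 per GDNF library and 1106882 to 1983259 per control library. Levels are in CPM, which are counts scaled per library after TMM normalization, a correction for differences in library composition. All members together took 0.0209 to 0.0665% of the counts in sorted libraries and 0.0616 to 0.0773% in organoid libraries, so most rest on few counts. Ret itself was higher in Ret-EGFP+ cells by a log2 fold change of 5.17 (edgeR adjusted p = 3.77e-07). The 13 markers of enteroendocrine cells all passed as higher in Ret-EGFP+ libraries, with a summed level of 21335 to 29303 CPM per library against 1076 to 3554 CPM in non-EGFP libraries. All 6 Paneth, 6 goblet and 6 stem cell markers were lower. The Paneth markers summed to 2916 to 7178 CPM per Ret-EGFP+ library against 170652 to 435189 CPM per non-EGFP library. Libraries 1 of both groups were on plate 2, libraries 2 to 4 on plate 3 and libraries 5 on plate 4, which came from a sequencing pool of its own.

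Of the 79 members, 44 had enough counts to be tested in sorted cells, 19 had 1 to 8 counts in all 10 libraries together, and 16 had none. A gene was called at an edgeR adjusted p under 0.1 over all 13672 genes tested. Higher in Ret-EGFP+ cells were 14 members, 31.8% of those tested, where 21.5% of all genes tested were higher. Lower were 4 members, 9.09% of those tested, where 21.4% of all genes tested were lower. The median log2 fold change of the tested members was 0.98, against 0.10 for all genes tested, and without Unc50 and Unc5cl the calls were the same 14 and 4, with a median of 1.09. In bulk samples a higher or lower level can come from more or fewer cells of a type, or from more or less RNA per cell. These cannot be told apart. With library totals as the sole scaling, the median of all genes was 0.66 in place of 0.10, 24 members were higher and 1 lower, and the share of higher genes among all calls was 72.0% in place of 50.2%. Of all 13672 genes, 4695 were then higher and 1828 lower. With plate as a block, an alternative added after the data were seen, 13 of these members were higher and 3 lower. In that fit 2543 of all 13672 genes were higher and 2697 lower. Without plate 4 the counts were 11 members higher and 2 lower, and 2086 and 2383 of all 13441 genes tested. Without any single library they were 12 to 15 members higher and 1 to 3 lower. Among all genes tested, 2468 to 2872 were higher and 2449 to 2862 lower in those fits.

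**Figure D1:**
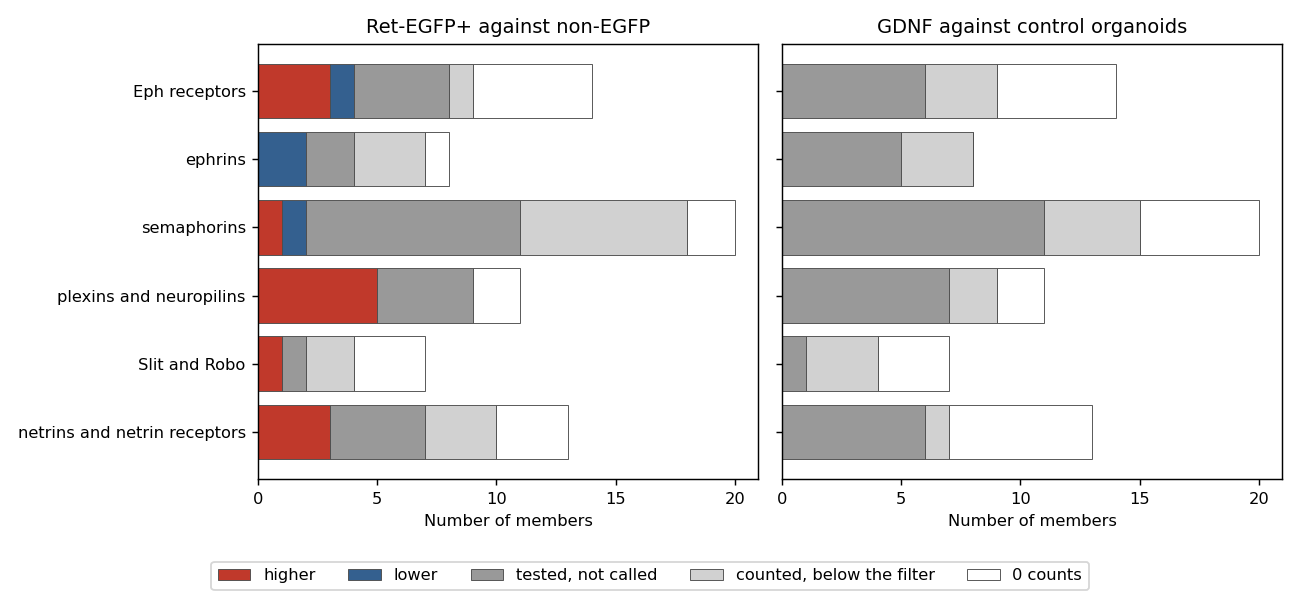
Number of members (x axis) in 6 of the families that were higher, lower, tested but not called, counted but below the filter, or at 0 counts, for Ret-EGFP+ against non-EGFP cells (left) and GDNF against control organoids (right). Plexins and neuropilins had 5 of 9 tested members higher in Ret-EGFP+ cells, and no member was called in organoids.

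Receptors of semaphorins were the family with the most calls. Of 9 plexins and neuropilins tested, 5 were higher in Ret-EGFP+ cells, 0 were lower and 4 were not called, with a median log2 fold change of 2.48. Nrp1 (chromosome 8, 128358604 to 128503363, GRCm38) encodes neuropilin 1, a co-receptor for class 3 semaphorins and for forms of VEGF. It was at 83.7, 74.2, 53.2, 50.1 and 74.8 CPM in Ret-EGFP+ libraries 1 to 5, against 0, 0, 0.588, 1.14 and 0.565 CPM in non-EGFP libraries 1 to 5. The groups lay far apart, with 827 counts in Ret-EGFP+ libraries against 4 in non-EGFP libraries. The log2 fold change was 7.52 (standard error 0.53, adjusted p = 3.12e-11), the largest fitted among the members, and 7.88 without plate 4.

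Nrp2, the other neuropilin, was at 6.09 ± 1.61 CPM in Ret-EGFP+ libraries against 1.45 ± 2.42 CPM in non-EGFP libraries (SD, n = 5 each). It was called higher (2.48, standard error 1.09, adjusted p = 0.0810), but 1 non-EGFP library, number 4, held 5 of the 8 counts of its group and overlapped the other group. Without that library the log2 fold change was 4.16 (adjusted p = 0.00714). The call was lost without Ret-EGFP+ library 1, 2, 3 or 5, and without non-EGFP library 1, 2 or 5 (adjusted p = 0.105 to 0.158) and without plate 4 (0.189).

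Plxnb1, a receptor for the membrane semaphorin Sema4d, was at 6.44, 6.68, 1.44, 14.7 and 9.59 CPM in Ret-EGFP+ libraries, against 0.235, 0.364, 0, 1.14 and 0.283 CPM in non-EGFP libraries. The groups did not overlap (92 against 4 counts), and the log2 fold change was 4.38 (standard error 1.00, adjusted p = 0.00136). Plxnc1, the receptor of Sema7a, had 6, 12, 2, 0 and 10 counts in Ret-EGFP+ libraries and none in non-EGFP libraries. With a floor of 3 counts over the 5 non-EGFP libraries, it was at least 11.04-fold higher (edgeR adjusted p = 0.0157). Such a bound takes the Ret-EGFP+ counts as exact and leaves out their spread between libraries. Without Ret-EGFP+ library 2, which held 12 of the 30 counts of Plxnc1, the gene was at least 7.58-fold higher (adjusted p = 0.0482). Plxna3, which works with neuropilins as a receptor of class 3 semaphorins, was at 3.05, 10.7, 1.44, 1.18 and 3.01 CPM in Ret-EGFP+ libraries, against 0.940, 0.728, 0, 0 and 0.283 CPM in non-EGFP libraries. Its log2 fold change was 2.94 (standard error 1.18, adjusted p = 0.0574), and the call was lost without Ret-EGFP+ library 2 (2.18, adjusted p = 0.224), without non-EGFP library 5 (2.80, 0.108) and without plate 4 (2.88, 0.141).

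The other plexins with sizeable counts were present in both groups. Plxnb2 was at 21.7 ± 8.45 CPM in Ret-EGFP+ libraries against 15.3 ± 6.23 CPM in non-EGFP libraries (log2 fold change 0.54, standard error 0.40, adjusted p = 0.322). Plxna2 was at 13.4 ± 4.79 CPM in Ret-EGFP+ cells, against 6.59 ± 4.86 CPM in non-EGFP cells (1.06, standard error 0.58, adjusted p = 0.159), and it passed without non-EGFP library 4 (1.29, 0.0979) or 5 (1.46, 0.0916). Plxnd1, a receptor of Sema3e, had 18 counts in Ret-EGFP+ libraries against 13 in non-EGFP libraries, all in 2 libraries of each group, with a log2 fold change of −0.21 (adjusted p = 0.939).

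Of 11 semaphorins tested, 1 passed as higher and 1 as lower in Ret-EGFP+ cells, and 9 were not called, with a median log2 fold change of 0.82. Sema3c, a secreted ligand of neuropilins, was at 14.2, 18.7, 10.1, 7.07 and 7.40 CPM in Ret-EGFP+ libraries, against 1.88, 2.55, 8.82, 1.14 and 2.26 CPM in non-EGFP libraries. Only non-EGFP library 3 reached into the range of the Ret-EGFP+ libraries. The log2 fold change was 1.78 (standard error 0.65, adjusted p = 0.0379), and 2.50 without that library. Sema4b, a transmembrane semaphorin, was at 5.42, 10.0, 7.67, 5.89 and 9.04 CPM in Ret-EGFP+ libraries, against 27.7, 1.46, 11.2, 38.7 and 18.1 CPM in non-EGFP libraries. The non-EGFP libraries spread widely, and number 2 lay below every Ret-EGFP+ library. Sema4b was called lower (−1.32, standard error 0.57, adjusted p = 0.0763), a call lost without Ret-EGFP+ library 1, 3 or 4, and without non-EGFP library 1, 4 or 5 (adjusted p = 0.107 to 0.224), without plate 4 (0.135) and with plate as a block (0.107).

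Of the semaphorins that were not called, Sema4g, Sema4a and Sema5a had the most counts. Sema4g was at 40.7 ± 13.4 CPM in Ret-EGFP+ libraries against 34.98 ± 14.2 CPM in non-EGFP libraries (log2 fold change 0.24, standard error 0.32, adjusted p = 0.5997). Sema4a was at 17.1 ± 9.61 CPM in Ret-EGFP+ cells, against 6.43 ± 5.81 CPM in non-EGFP cells (1.35, standard error 0.67, adjusted p = 0.118), and passed without Ret-EGFP+ library 2, non-EGFP library 1 or non-EGFP library 3 (1.58 to 1.67, adjusted p = 0.0734 to 0.0908). Sema5a was at 11.4 ± 5.32 CPM in Ret-EGFP+ cells, against 7.45 ± 2.79 CPM in non-EGFP cells (0.59, standard error 0.55, adjusted p = 0.441).

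**Figure D2:**
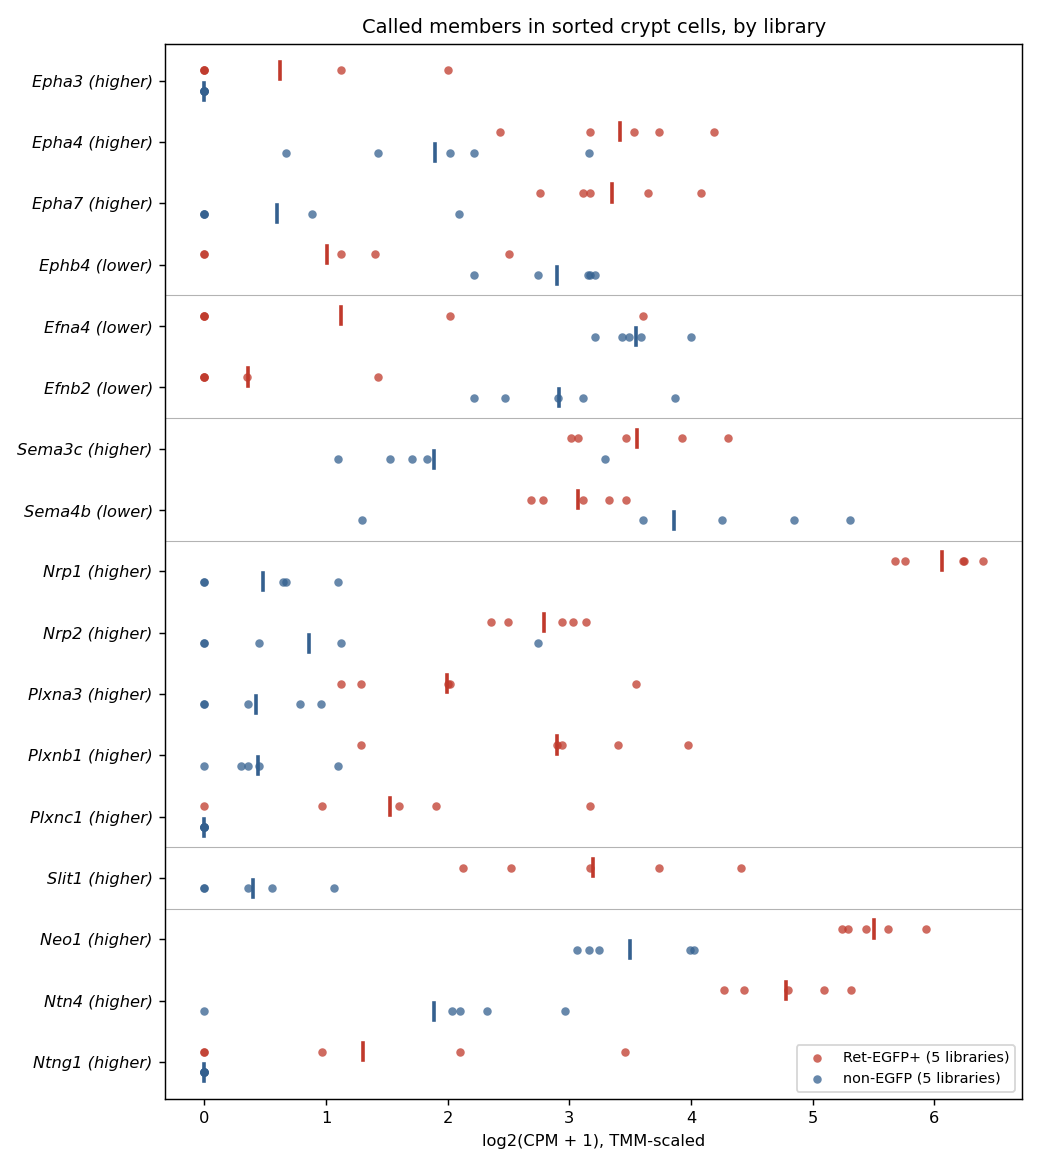
Level of called members of 6 families on a log2(CPM + 1) scale (x axis) in each Ret-EGFP+ library (upper row of each gene) and each non-EGFP library (lower row), with vertical bars at the means of 5 libraries. Nrp1 lies farthest apart, Ntn4, Neo1, Slit1, Plxnb1, Plxna3 and Epha7 are higher without overlap, and Efnb2 is lower without overlap.

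Netrins, their receptors and relatives had 3 of 7 tested members higher and 0 lower. Neo1 encodes neogenin, a receptor of netrins and of repulsive guidance molecules (chromosome 9, 58874687 to 59036441). It was at 42.4, 60.2, 36.9, 48.3 and 38.1 CPM in Ret-EGFP+ libraries, against 8.46, 14.9, 15.3, 7.96 and 7.35 CPM in non-EGFP libraries. All Ret-EGFP+ libraries lay above all non-EGFP libraries, with 513 against 136 counts and a log2 fold change of 2.05 with standard error 0.34 (adjusted p = 3.68e-05). Ntn4, a netrin of basement membranes (chromosome 10, 93640681 to 93747207), was at 33.2, 38.8, 26.9, 20.6 and 18.4 CPM in Ret-EGFP+ libraries, against 3.29, 4.01, 0, 6.82 and 3.11 CPM in non-EGFP libraries. These groups did not overlap either (314 against 42 counts), with a log2 fold change of 3.05 with standard error 0.54 (adjusted p = 8.65e-05).

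Ntng1 encodes netrin-G1, which is anchored to the membrane and binds the synaptic adhesion protein encoded by Lrrc4c rather than Dcc. It had 0, 0, 2, 17 and 12 counts in Ret-EGFP+ libraries and none in non-EGFP libraries, at least 11.4-fold higher taking 3 counts as the floor of the non-EGFP group (adjusted p = 0.0217). Its counts thus lay in 3 of 5 libraries, and 17 of 31 in library 4, without which it was at least 6.01-fold higher (adjusted p = 0.0754). Lrrc4c itself had 0 counts in all sorted and all organoid libraries. Of the classical netrin receptors, Dcc had 1 Ret-EGFP+ count and 0 non-EGFP counts, Unc5c and Unc5d had none, and Unc5a, a repulsive netrin receptor, was at 3.37 ± 1.61 CPM in Ret-EGFP+ cells, against 1.85 ± 1.74 CPM in non-EGFP cells (0.90, adjusted p = 0.512). Unc5b had 13 counts in Ret-EGFP+ libraries against 1 in non-EGFP libraries, a ratio of 14.4 with an exact 95% counting interval of 2.16 to 610, and did not pass (adjusted p = 0.114). It passed narrowly without Ret-EGFP+ library 1 or 4, and without non-EGFP library 5 (adjusted p = 0.0963 to 0.0980). Unc5b, Dcc and Lrrc4c were picked out after their values were seen.

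The members that match by prefix alone were not called. Unc50 was at nearly equal levels in both groups, with 943 counts in Ret-EGFP+ cells, against 1003 counts in non-EGFP cells (log2 fold change 0.03, adjusted p = 0.928). Unc5cl, which encodes a death domain protein, had 8 counts in Ret-EGFP+ libraries, all in library 5, and 37 in non-EGFP libraries (−2.04, adjusted p = 0.276). Without Ret-EGFP+ library 5 it was called lower (−5.42, adjusted p = 0.0392), as it was without plate 4 (−5.45, adjusted p = 0.0551).

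Among Slit and Robo genes, 2 of 7 were tested and Slit1 was called higher. Slit1 (chromosome 19, 41600257 to 41743665), a secreted repellent, was at 4.75, 8.02, 3.36, 12.4 and 20.3 CPM in Ret-EGFP+ libraries, against 0.470, 1.09, 0, 0 and 0.283 CPM in non-EGFP libraries. The groups did not overlap, with 128 against 6 counts and a log2 fold change of 4.34 with standard error 0.91 (adjusted p = 0.000537). The level of library 5 was more than that of any other Ret-EGFP+ library, and without plate 4 the log2 fold change was 3.76 (adjusted p = 0.0217). Without non-EGFP library 2, which held 3 of the 6 counts of its group, it was 4.97 (adjusted p = 0.000549). Slit2, another secreted repellent, had 4 Ret-EGFP+ and 17 non-EGFP counts (−1.56, standard error 1.53, adjusted p = 0.466). Receptors of Slits were hardly counted: Robo1 had 3 counts in Ret-EGFP+ libraries against 0 in non-EGFP libraries, Robo2 had 0 Ret-EGFP+ counts and 1 non-EGFP count, and Robo3 and Robo4 had none. At this depth a count of 0 over a group allows a level of up to 0.253 CPM in Ret-EGFP+ libraries against 0.229 CPM in non-EGFP libraries, for counting error only.

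Eph receptors went both ways, with 3 of 8 tested members higher and 1 lower in Ret-EGFP+ cells. The receptors that were higher belong to the A class, which binds mainly ephrin-A ligands. Epha7 (chromosome 4, 28813131 to 28967499) was at 5.76, 8.02, 7.67, 15.9 and 11.5 CPM in Ret-EGFP+ libraries, against 0, 3.28, 0, 0 and 0.848 CPM in non-EGFP libraries. The groups did not overlap, and the log2 fold change was 3.35 (standard error 0.92, adjusted p = 0.00638), or 4.91 without non-EGFP library 2, which held 9 of the 12 counts of its group. Epha4 (chromosome 1, 77367185 to 77515088) was at 17.3, 8.02, 10.5, 12.4 and 4.38 CPM in Ret-EGFP+ libraries, against 3.06, 3.64, 0.588, 7.96 and 1.70 CPM in non-EGFP libraries. Ranges overlapped in part, and the log2 fold change was 1.73 (standard error 0.68, adjusted p = 0.0547), a call lost without Ret-EGFP+ library 1 (1.46, 0.156) or non-EGFP library 5 (1.54, 0.116). Epha3 had 2 and 11 counts in Ret-EGFP+ libraries 4 and 5 and none elsewhere, at least 4.78-fold higher by the floor. Without Ret-EGFP+ library 5 the 2 counts left were too few for a bound. The call of Epha3 (edgeR adjusted p = 0.0806) was lost without any of the non-EGFP libraries (0.103 to 0.137) and with plate as a block (0.184). Without plate 4 the gene fell below the filter.

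B-type receptors and ephrins had no member higher. Ephb4, the receptor of ephrin-B2, was at 0, 4.68, 0, 1.18 and 1.64 CPM in Ret-EGFP+ libraries, against 7.99, 3.64, 8.24, 5.69 and 7.92 CPM in non-EGFP libraries. It was called lower (−2.21, standard error 0.95, adjusted p = 0.0741) although Ret-EGFP+ library 2 lay within the other group, and without that library the log2 fold change was −3.13. The call was lost without Ret-EGFP+ library 1, 3, 4 or 5, and without non-EGFP library 1, 3 or 5 (adjusted p = 0.106 to 0.149) and without plate 4 (0.178). Ephb2, a receptor of crypt base cells, was at 18.8 ± 10.5 CPM in Ret-EGFP+ libraries against 11.8 ± 3.89 CPM in non-EGFP libraries (0.70, standard error 0.51, adjusted p = 0.307), and was higher without Ret-EGFP+ library 2 (0.99, adjusted p = 0.0705). Ephb3, which acts with Ephb2 in the crypt, was at 4.73 ± 3.41 CPM in Ret-EGFP+ cells, against 3.32 ± 1.37 CPM in non-EGFP cells (0.54, adjusted p = 0.641), and Epha2 had 32 Ret-EGFP+ and 14 non-EGFP counts (1.11, adjusted p = 0.536).

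Efnb2 (chromosome 8, 8617434 to 8661242), which encodes ephrin-B2, had 5, 0, 0, 0 and 1 counts in Ret-EGFP+ libraries, against 58, 10, 13, 4 and 23 counts in non-EGFP libraries. This was 1.69, 0, 0, 0 and 0.274 CPM in Ret-EGFP+ libraries, against 13.6, 3.64, 7.65, 4.55 and 6.50 CPM in non-EGFP libraries, without overlap. The log2 fold change was −3.85 (standard error 1.01, adjusted p = 0.00461), and −5.59 without Ret-EGFP+ library 1. Efna4 (chromosome 3, 89333390 to 89338028), which encodes ephrin-A4, was at 3.05, 0, 0, 11.2 and 0 CPM in Ret-EGFP+ libraries, against 15.04, 9.83, 8.24, 10.2 and 11.03 CPM in non-EGFP libraries. Library 4 held 19 of the 28 Ret-EGFP+ counts, and without it the log2 fold change was −3.63 (adjusted p = 0.00587) in place of −1.98 (standard error 0.90, adjusted p = 0.0904). The call was lost without any other library, of either group (adjusted p = 0.1002 to 0.180), without plate 4 (0.219) and with DESeq2 (0.126). Efna1 (chromosome 3, 89271733 to 89281142), which encodes ephrin-A1, was at 23.6 ± 8.13 CPM in Ret-EGFP+ libraries against 23.9 ± 10.3 CPM in non-EGFP libraries (−0.0035, standard error 0.37, adjusted p = 0.996). Efnb1 was at 7.17 ± 4.16 CPM in Ret-EGFP+ cells, against 11.3 ± 3.82 CPM in non-EGFP cells (−0.65, standard error 0.56, adjusted p = 0.397).

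Neurexins are presynaptic adhesion proteins that bind neuroligins. Nrxn3 had 12 Ret-EGFP+ and 13 non-EGFP counts (0.08, adjusted p = 0.971), and Nrxn2 had 9 Ret-EGFP+ and 2 non-EGFP counts (1.36, adjusted p = 0.562), a ratio of 4.97 with a counting interval of 1.03 to 47.3. The neuroligins, their postsynaptic partners, were all below the filter. Nlgn1, Nlgn2 and Nlgn3 had 4, 7 and 7 counts in Ret-EGFP+ libraries, against 0, 1 and 0 counts in non-EGFP libraries, and those of Nlgn1 and of Nlgn3 lay in 1 library each.

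**Figure D3:**
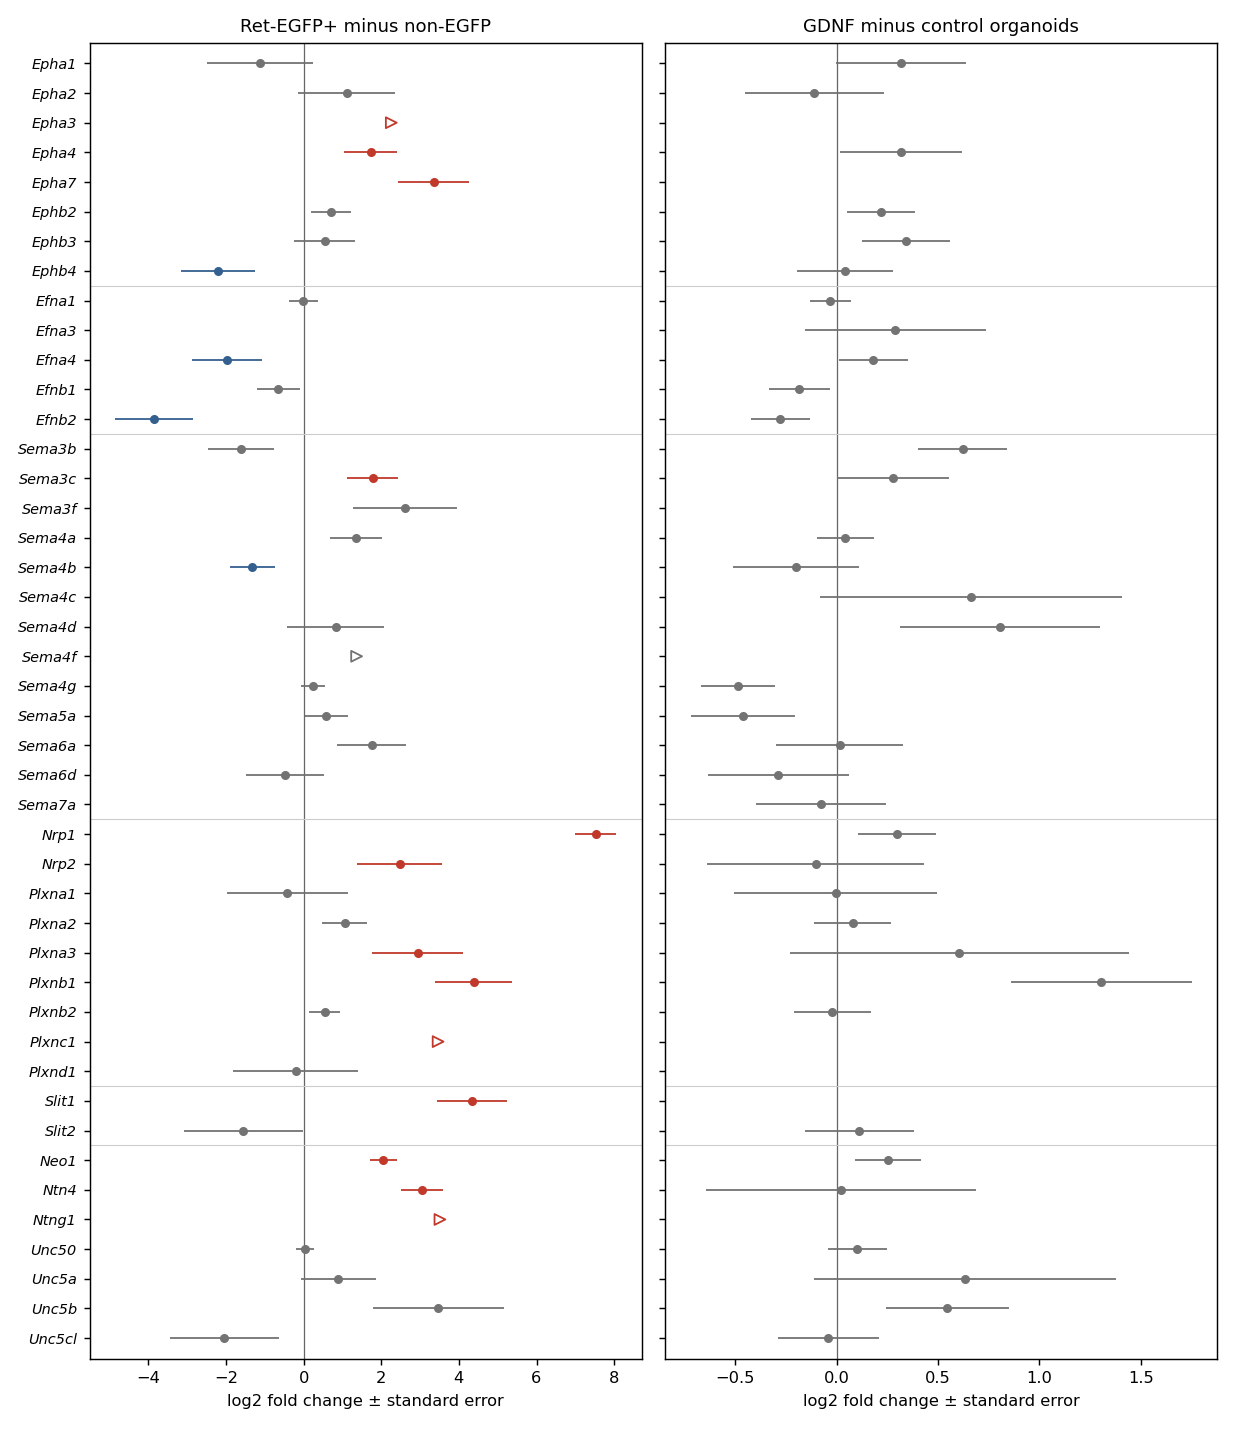
Log2 fold change with its standard error (x axis) of each tested member of 6 families in Ret-EGFP+ minus non-EGFP cells (left) and GDNF minus control organoids (right), red where higher, blue where lower and grey where not called. Open triangles are folds by the floor for genes with 0 counts in non-EGFP cells, with the Ret-EGFP+ counts taken as exact. The axes differ in range: the largest value is 7.52 (Nrp1) in sorted cells and 1.31 (Plxnb1) in organoids.

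Other members with counts below the filter in sorted cells included Epha10, Efna2, Efna3, Efnb3, Sema3a, Sema3d, Sema3e, Sema4c, Sema5b, Sema6b, Ntn1 and Ntn5. Epha6, Epha8, Ephb1, Ephb6, Plxnb3, Robo4, Ntng2, Unc5c and Unc5d had 0 counts in all libraries of both tables. Epha5, Efna5, Sema3g, Sema6c, Plxna4, Robo3 and Slit3 had 0 counts in sorted cells alone. The exons of several members overlap those of another gene on the other strand, and whether counting used strand is not given in the sources used here. Called members with such a partner include Plxnb1, whose partner Gm7628 had 0 counts, Efna4, whose partner 4731419I09Rik had 8 counts against 181, and Ephb4, whose partner Zan had 49 counts against 106.

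Signalling partners of the families were counted from lists of genes chosen by function, with earlier results of these data known. Of 20 tested partners of Eph receptors and ephrins, 5 passed as higher and 2 as lower in Ret-EGFP+ cells (median log2 fold change 0.63). Rasa1, a Ras GTPase-activating protein that binds Eph receptors, was higher (1.60, adjusted p = 0.000377), as was Pick1, a PDZ protein that binds ephrin-B (1.48, 0.00611). Adam10, a protease that sheds ephrins, was lower (−1.83, adjusted p = 0.000571), and so was Acp1, a phosphatase that acts on Eph receptors (−1.39, 0.00377). Of 21 tested effectors of plexins and neuropilins, 5 were higher and 1 lower (median 0.35). Mical2 and Rras, an actin-oxidizing enzyme and a small GTPase on which plexins act, were higher by 2.80 (adjusted p = 0.000208) and 2.66 (0.00112). Crmp1, a collapsin response mediator, had 60 counts in Ret-EGFP+ libraries against 0 in non-EGFP libraries, at least 22.1-fold higher (adjusted p = 0.000713), and Farp1 was higher by 1.83 (0.00884).

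Of 20 tested partners of Robo, netrin receptors and neogenin, 7 were higher and 5 lower (median 0.92). Ablim1, an actin-binding protein of the netrin pathway, was higher by 3.11 (adjusted p = 4.81e-05), and Flrt1 by 2.72 (0.0218). Dock1, which links netrin receptors to Rac, was lower (log2 fold change −2.94, adjusted p = 0.00750), and so was Lrig3 (−3.62, 0.0145). Of 24 tested partners of neurexins and neuroligins, 8 were higher and 3 lower (median 1.09). Lin7a, a presynaptic scaffold protein, had 186 counts in Ret-EGFP+ libraries against 0 in non-EGFP libraries, at least 68.5-fold higher (adjusted p = 1.93e-06). Clstn2, which encodes a calsyntenin, had 110 Ret-EGFP+ counts and 1 non-EGFP count, a ratio of 121 with a counting interval of 21.4 to 4841 (adjusted p = 2.95e-05). Lrrtm3, a ligand of neurexins, was higher by 4.17 (adjusted p = 0.00301) and Dlg4, which encodes the postsynaptic scaffold PSD-95, by 3.50 (0.00345). Of 19 tested genes of other synaptic adhesion families, 10 were higher and 0 lower (median 2.17), led by the neural adhesion genes Ncam2 (3.89, adjusted p = 2.31e-06) and Nfasc (4.09, 6.43e-06), by Cntnap2 (4.48, 0.000156) and by Ptprs (3.47, 0.000887). These shares stand beside 21.5% higher and 21.4% lower among all genes tested, and the medians beside 0.10.

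Several of these families are also used by neurons, vessels and blood cells, so markers of those cells were counted. Of 8 enteric neuron markers, the 4 tested were all higher in Ret-EGFP+ cells, with a summed level of 48.3 to 95.6 CPM per Ret-EGFP+ library and 0 to 7.28 CPM per non-EGFP library. The neuronal genes Hand2 and Chrna3 had 0 counts in all Ret-EGFP+ libraries, and so had the glial genes Sox10, Gfap and Foxd3. Endothelial markers summed to 2.95 to 15.4 CPM in Ret-EGFP+ libraries against 1.09 to 7.65 CPM in non-EGFP libraries, with 0 of 3 tested called and Cdh5, Kdr, Tek and Emcn at 0 in Ret-EGFP+ libraries. Fibroblast and smooth muscle markers summed to 0 to 2.40 CPM in Ret-EGFP+ cells, against 0 to 13.6 CPM in non-EGFP cells, with 0 of 1 tested called. Leukocyte markers summed to 9.43 to 52.3 CPM in Ret-EGFP+ cells, against 11.4 to 72.8 CPM in non-EGFP cells. Of 8 leukocyte markers tested, 2 were higher and 3 lower, and their part in the results was not tested. In organoids, fibroblast and smooth muscle markers summed to 10.3 to 17.5 CPM per GDNF library and 7.09 to 30.1 CPM per control library. Endothelial markers summed there to 4.48 to 14.4 CPM with GDNF and 4.81 to 27.9 CPM in controls. Neuron markers summed to 0.512 to 3.23 CPM with GDNF and 0 to 5.17 CPM in controls.

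In organoids the comparison of GDNF with control asked which transcripts respond to the ligand of the RET receptor complex, with the experiment as a block. Of the 79 members, 37 were tested, 19 had 1 to 11 counts in all 12 libraries together and 23 had none. None was called, higher or lower, where 0.532% of all 12220 genes tested were higher and 0.123% lower. At an unadjusted p under 0.05 there were 3 of 37 members with edgeR, beside 836 of all 12220 genes tested. With DESeq2 there were 3 members, and it called 0 as well. The median log2 fold change was 0.10 for the members and 0.0070 for all genes tested. Enteroendocrine markers summed to 679 to 808 CPM per GDNF library and 574 to 797 CPM per control library. In Ret-EGFP+ libraries, which were normalized apart, they summed to 21335 to 29303 CPM. Of the 12 markers tested in organoids, 0 were called (median log2 fold change −0.07). This list leaves out Tac1, Tph1, Pyy and Cck, which the study reports as higher with GDNF. Higher with GDNF were 4 of 6 goblet, 3 of 6 Paneth, 3 of 6 stem cell and 1 of 7 epithelial markers, and 0 were lower. Tuft cell, proliferation and enterocyte markers had 0 called.

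The smallest p among members was that of Plxnb1, which was picked out after its values were seen. It was at 9.70 and 8.59 CPM in experiment 1, 8.29 and 4.48 CPM in experiment 2 and 1.02 and 1.99 CPM in experiment 3 with GDNF, against 0.963 and 5.06, 2.21 and 1.52, and 1.67 and 0.664 CPM in controls. Both GDNF libraries lay above both controls in experiments 1 and 2 but not in experiment 3. The log2 fold change was 1.31 (standard error 0.45, edgeR adjusted p = 0.395), on 52 against 19 counts. Sema3b, a secreted class 3 semaphorin, was at 21.3 ± 8.09 CPM with GDNF and 13.6 ± 6.35 CPM in controls (SD, n = 6 each), with a log2 fold change of 0.62 with standard error 0.22 (adjusted p = 0.420). Its difference in mean log2(CPM + 1) was 1.16 in experiment 1, 0.0017 in experiment 2 and 0.82 in experiment 3. Sema4g was at 18.4 ± 2.61 CPM with GDNF and 25.7 ± 8.31 CPM in controls (−0.49, standard error 0.18, adjusted p = 0.479), below control in the mean of each experiment.

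None of the members with the most counts in each family was called. Nrp1 was at 25.3 ± 17.0 CPM with GDNF and 20.7 ± 14.2 CPM in controls (log2 fold change 0.30, standard error 0.19, adjusted p = 0.844), and Neo1 was at 34.9 ± 9.45 CPM with GDNF and 29.2 ± 4.47 CPM in controls (0.25, standard error 0.16, adjusted p = 0.844). Efna1 was at 178 ± 32.8 CPM with GDNF and 184 ± 47.6 CPM in controls (−0.03, standard error 0.10), Efnb2 at 30.3 ± 7.37 CPM with GDNF and 36.5 ± 4.79 CPM in controls (−0.28, standard error 0.15), and Efnb1 at 32.8 ± 6.17 CPM with GDNF and 36.7 ± 4.23 CPM in controls (−0.18, standard error 0.15). Among Eph receptors, Ephb2 was at 31.3 ± 2.67 CPM with GDNF and 26.8 ± 8.19 CPM in controls (0.22, standard error 0.17) and Ephb4 at 16.7 ± 7.70 CPM with GDNF and 15.5 ± 7.37 CPM in controls (0.04, standard error 0.24). The log2 fold changes of Sema4a, Plxnb2, Plxna2, Slit2, Unc50, Unc5cl and Nrxn3 lay between −0.04 and 0.31, with standard errors of 0.14 to 0.45 and adjusted p of at least 0.958. Of the 5 partner lists, only Sdc1 of the Robo and netrin list, a heparan sulfate proteoglycan, was called, higher with GDNF (97.9 ± 22.9 CPM with GDNF and 69.5 ± 13.0 CPM in controls, log2 fold change 0.47, adjusted p = 0.0305).

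Some members called in sorted cells had few or no counts in organoids. Epha3, Plxnc1 and Ntng1, with 13, 30 and 31 counts in Ret-EGFP+ cells, had 0 counts in all 12 organoid libraries, where 0 counts allow up to 0.303 CPM with GDNF and 0.358 CPM in controls. Slit1 had 3 counts with GDNF and 3 in controls, and Epha7 had 2 with GDNF and 9 in controls. Sema3a, Sema3d, Sema3e, Sema4f, Sema5b, Robo1, Robo2, Dcc, Ntn5, Nlgn1 and Nlgn3 also had 0 counts in organoids alone. The tables were normalized apart, and no test was run between them. Whether the lower level of enteroendocrine markers in organoids bears on these counts was not tested.

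Of all 12220 genes tested, 6 were called for a GDNF effect that differed between experiments (interaction F test, adjusted p under 0.1). Each experiment had 2 libraries of each treatment. Of the members, 37 were tested and 0 called, so nothing particular to them is read from this. At an unadjusted p under 0.05 there was 1 member. That member was Ephb3 (edgeR adjusted p = 0.866), which was at 32.3 and 21.8, 35.9 and 23.7, and 11.3 and 14.9 CPM with GDNF in experiments 1 to 3, against 13.5 and 29.9, 25.8 and 37.2, and 3.35 and 4.65 CPM in controls. GDNF libraries of experiment 3 were above both of its controls, and those of experiment 2 were not.

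Levels of members were also compared between the experiments themselves. This comparison was chosen after the values were seen. Libraries of an experiment share a mouse, so its p-values and standard errors measure spread between libraries, not between mice. With treatment in the model, 17 of 37 members differed between experiments (F test, adjusted p under 0.1), where 34.2% of all genes tested did. Against experiments 1 and 2, 11 members were lower in experiment 3, where 17.0% of all genes were lower, and 5 were higher, where 17.2% were higher. Nrp1 had a mean of 3.69 CPM (range 2.51 to 4.65) in the 4 libraries of experiment 3, against 32.98 CPM (20.8 to 41.4) in experiment 1 and 32.4 CPM (28.1 to 35.9) in experiment 2. This is a log2 fold change of −3.11 with standard error 0.26 (adjusted p = 6.98e-14) in experiment 3 against the mean of the others.

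Ephb3 was also lower in experiment 3, at 8.55 CPM against 24.4 and 30.7 CPM (−1.62, standard error 0.25, adjusted p = 1.83e-06), and so were Sema5a, at 5.19 CPM against 11.3 and 15.6 CPM (−1.34, adjusted p = 0.000414), and Plxnb1, at 1.34 CPM against 6.08 and 4.13 CPM (−1.91, adjusted p = 0.00500). Efna3, which encodes ephrin-A3, was higher at 7.25 CPM (6.64 to 8.71) against 0.628 CPM (0 to 1.94) in experiment 1 and 4.08 CPM (0.921 to 6.39) in experiment 2 (2.06, adjusted p = 0.000658), and Efna1 was higher at 222 CPM against 172 and 150 CPM (0.47, adjusted p = 0.000508). Each experiment is 1 mouse, and experiment 3 alone came from a male, so mouse, sex and culture run cannot be told apart.

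**Figure D4:**
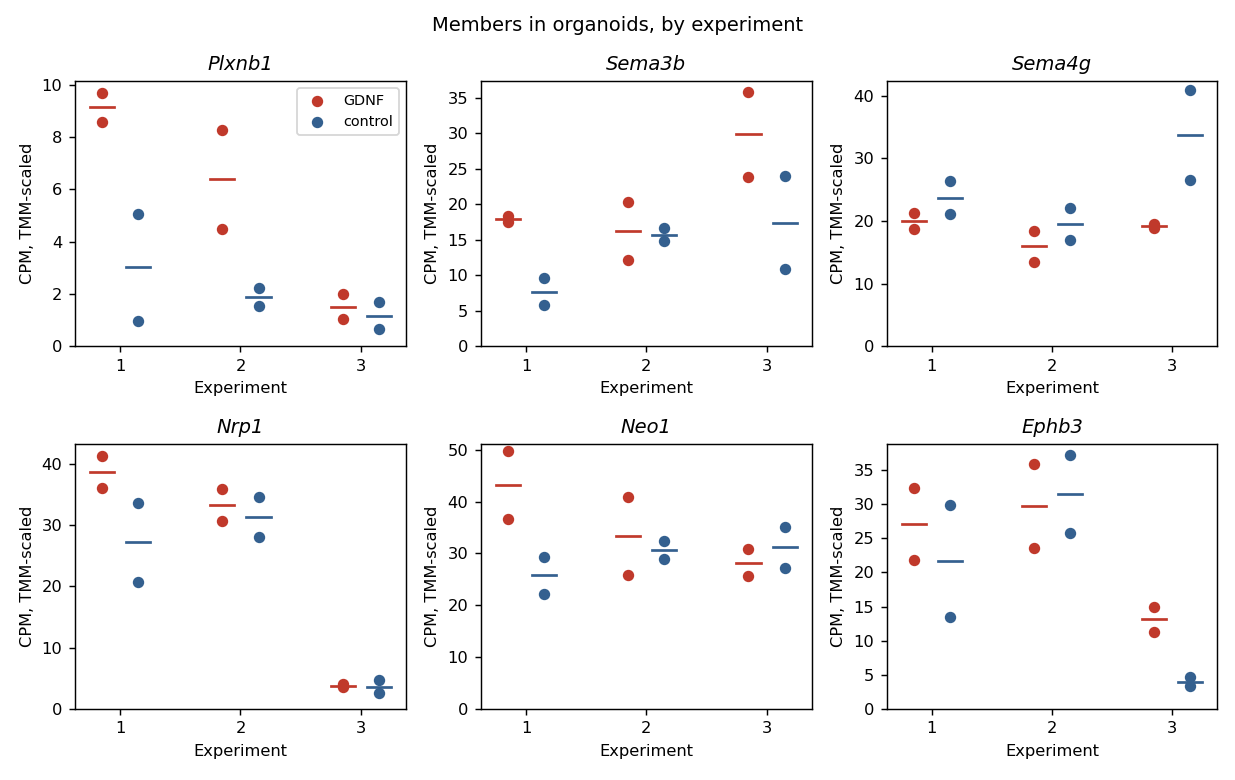
CPM (y axis, from 0) of 6 members in the 2 GDNF libraries (left in each pair) and 2 control libraries (right) of experiments 1 to 3, with bars at the means. Nrp1 is at 2.51 to 4.65 CPM in all libraries of experiment 3 and at 20.8 CPM or more in the others, and Plxnb1 is higher with GDNF in experiments 1 and 2.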

How the data were processed

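The authors primed RNA with oligo-dT carrying a library barcode and an 8-nucleotide identifier, aligned reads to GRCm38 with STAR 2.7.8a and counted them with BRB-seqTools, per the submitters' processing notes and the study's methods. Deposited are raw counts per Ensembl gene, as the authors made them, for 31053 mouse identifiers (30934 with a GENCODE M21 symbol). The 1 entry that is no mouse gene was left out. The sorted-cell table holds values above 65536, the number of possible identifiers, so its counts need not be distinct molecules, and floors and intervals cover counting error only. Groups, experiments and plates came from the deposited sample sheets, which were mapped to the sequencing pools. No per-sample column was left unmatched (0).

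Low genes were dropped (a total under 5 counts, or a TMM-normalized mean under 1), and the rest were tested by quasi-likelihood in edgeR 4.0.16 with TMM in R 4.3.3, with GFP alone or with experiment and treatment, Benjamini-Hochberg adjustment over all genes tested and calls at an adjusted p under 0.1. Standard errors were derived as |log2 fold change|/√F. DESeq2 1.42.0 and other normalizations, filters, thresholds, blocks and left-out libraries were alternatives, of which plate as a block in sorted cells was added after the data were seen. The mouse behind each sorted library is not known, so libraries of the same mouse entered as separate replicates and p-values may be too small. The procedure was tested on simulated data with changes set only in genes of higher counts. That test does not cover members with few counts. Members and lists were chosen with earlier results of these data known.

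Named are all called members, up to 3 others per family by mean count, members at 0 counts and up to 4 called genes per partner list by p, and other members where said. Results of some genes under this rule are not reported here. A group with 0 counts had 3 counts in all its libraries together as its floor, and groups with 1 to 3 counts an exact 95% interval of the ratio. Folds given as at least took the counts of the other group as exact. They leave out its counting error and its spread between libraries.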

Additional observations from a re-analysis of the deposited data

Results flagged for a closer look

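Within the groups of 5 sorted libraries, the levels of called members were searched for a single library far from the others of its group, by Dixon's test at its 95% critical value. Of 33 groups with any spread, 6 held such a library, where about 1.65 would be expected if levels were normally distributed. Many of these levels rest on few counts, some of them 0, and need not be normal. No conclusion is drawn from the difference. In Ret-EGFP+ cells these were Efna4 at 11.2 CPM in library 4 (19 counts), with the next library at 3.05 CPM, Efnb2 at 1.69 CPM in library 1 (5 counts), with the next at 0.274 CPM, and Plxna3 at 10.7 CPM in library 2 (16 counts), with the next at 3.05 CPM. In non-EGFP cells they were Epha7 at 3.28 CPM in library 2 (9 counts), with the next at 0.848 CPM, Sema3c at 8.82 CPM in library 3 (15 counts), with the next at 2.55 CPM, and Nrp2 at 5.69 CPM in library 4 (5 counts), with the next at 1.18 CPM. In 5 of the 6 the library lay toward the other group. In the case of Plxna3 it lay away from it, and the call was lost without that library.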

How the results depend on the processing

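Of the 18 members called in sorted cells, 11 (among them Epha7, Efnb2, Sema3c, Nrp1, Plxnb1, Plxnc1, Slit1, Neo1, Ntn4 and Ntng1) were called in the same direction under every alternative that tested them. Of the 26 not called, 15 were never called. The number higher was 14, with 24 under total counts alone and 7 under edgeR's filterByExpr, which tested 20 members. Of all genes, 2940 of 13672 were higher in the main fit, 4695 of 13672 under total counts and 2098 of 8793 under filterByExpr. The number lower was 4, with 1 under total counts alone, 2 under filterByExpr, 1 at an adjusted p under 0.05 and 2 without plate 4. Of all genes, 2920 of 13672 were lower in the main fit. The others gave 1828 of 13672, 2149 of 8793, 2345 of 13672 and 2383 of 13441, in the same order. With plate as a block, added after the data were seen, they were 13 and 3, all among those called without it. Leaving out single libraries gave 12 to 15 higher and 1 to 3 lower. The cause of the change under total counts was not tested beyond the shift of all genes. In organoids, where 36 of 37 members were never called, the counts of 0 higher and 0 lower held under all alternatives except a rule with no adjustment (p under 0.05, more than 1 log2 unit in size), by which 1 member, Plxnb1, was higher. Single libraries left out gave 0 to 0. Without the block for the experiment they were 0 too. Low counts limit most members: 0 counts over a group still allow a level of up to 0.229 to 0.358 CPM.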
